A study of Homo sapiens with 23 samples.

Results

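The hemidesmosome genes *COL17A1*, *LAMA3*, *LAMB3*, *ITGA6*, *ITGB4*, *DST*, *PLEC* and *CD151* were examined in A549 cells depleted of THUMPD3, an enzyme that methylates guanosines in tRNA. These 8 genes are a fixed list of named components, found by symbol among the 61806 genes of the first count table and the 42901 genes of a second table of more deeply sequenced libraries. The list was chosen because *COL17A1* and *LAMB3* rose most when each knockdown was set against its own controls. No p-value is therefore given for *COL17A1* and *LAMB3*, nor for any of the 8 in a knockdown against its own control. Where any of the 8 is called or counted among called genes, that is a description. A549 is an established human lung adenocarcinoma line. In the first 17 libraries, THUMPD3 was depleted with a transfected siRNA (siD3 #3, harvested on day 5) or with either of a pair of doxycycline-inducible shRNAs, shD3 #1 and shD3 #4, carried by lentivirus in puromycin-selected cells and harvested on day 6. Each had its own control (siControl, sh1Control, sh4Control), with 3 libraries in a group except siControl, of which 2 were analysed here. The other 6 libraries repeat shD3 #1 and sh1Control at greater depth. The labels do not say whether the shRNA controls were the same cells without doxycycline or carried another shRNA, and give no harvest day for the deep libraries. The methods of the study call the reference samples untreated. Replicates are labelled as biological, and the p-values below measure the spread between these libraries.

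A hemidesmosome rivets an epithelial cell to the basement membrane. Outside the cell, laminin-332, a trimer that holds the α3 and β3 chains, is bound by integrin α6β4 and by the transmembrane collagen XVII. Inside, the plakin proteins plectin and BP230 tie both to keratin filaments. The structure is a hallmark of basal cells of skin and airway, and its laminin and integrin also serve carcinoma cells in attachment and migration.

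The libraries held 9854294 to 22101059 counts in the first table (median 18993800) and 27285889 to 59974740 in the deep table. *THUMPD3* was lower than in the own controls in every knockdown library, with 51.3% of the control level left in shD3 #1, 31.4% in shD3 #4, 17.1% in siD3 #3 and 49.6% in deep shD3 #1. Some libraries stood apart. Replicate 3 of siD3 #3 stood apart from replicates 1 and 2, with a chi-square per degree of freedom of 30.4 and 34.6 against them where replicates 1 and 2 differed by 3.76. The pair of siControl libraries differed by 11.0 on that scale, and other pairs within groups by 1.82 to 16.4. The simple-epithelial markers *EPCAM*, *CDH1*, *KRT7*, *KRT8*, *KRT18* and *KRT19* summed to between 3758 and 7942 cpm (counts scaled to a common library size) in each library, as in an epithelial line. The basal keratins *KRT5* and *KRT14* had at most 6 counts in any library.

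As examples of sequence upstream of an annotated start, the 150 bases before a RefSeq start are printed for *COL17A1* and *LAMB3*, the genes of the largest change. They are also printed for *LAMA3*, whose product joins that of *LAMB3* in the same trimer. Capitals mark TGANTCA, the letters bound by AP-1 factors, which read the same on either strand with any base at N. The sequences are from RefSeq on GRCh38.p14, where 5 of the 8 genes had at least 1 window of 300 bases (250 before the start and 50 after it).
COL17A1, chr10:104085881-104086030, minus strand: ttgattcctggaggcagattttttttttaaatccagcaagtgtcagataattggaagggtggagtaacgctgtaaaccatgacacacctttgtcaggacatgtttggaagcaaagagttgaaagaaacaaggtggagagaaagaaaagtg
LAMB3, chr1:209651375-209651524, minus strand: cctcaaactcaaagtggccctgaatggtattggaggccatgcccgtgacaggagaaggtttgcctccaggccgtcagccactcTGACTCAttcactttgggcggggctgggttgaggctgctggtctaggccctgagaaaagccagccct
LAMA3, chr18:23872870-23873019, plus strand: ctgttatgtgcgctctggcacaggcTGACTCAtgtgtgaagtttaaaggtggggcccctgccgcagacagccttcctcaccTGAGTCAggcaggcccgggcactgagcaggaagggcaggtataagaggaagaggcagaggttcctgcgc
The motif began 67 bases before the *LAMB3* start at 125 and 69 bases before the *LAMA3* start and 26 bases after a *DST* start, and its letters are not in the *COL17A1* window. In all, 3 of the 10 windows of these genes held it, against 7.71% of 35116 windows. *ITGB4*, *PLEC* and *CD151* had no entry. The *LAMA3* and *LAMB3* windows are those of starts inside the annotated genes, and the *LAMB3* window shown is the 1 of its 3 windows that holds the motif, so these matches describe letters and not use of a start.

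*COL17A1* encodes collagen XVII (BP180), the transmembrane collagen that reaches from the plaque into the basement membrane. It was barely expressed in control cells, with 17 to 37 counts per first control library. After trimmed mean of M-values (TMM) normalisation its level was 1.61, 1.16 and 1.76 cpm in sh1Control, against 20.4, 22.8 and 21.3 cpm in shD3 #1. In sh4Control it was 1.81, 1.76 and 1.63 cpm, against 2.93, 2.92 and 3.21 cpm in shD3 #4. In siControl it was 1.58 and 1.18 cpm, against 33.5, 34.1 and 8.81 cpm in siD3 #3. Every knockdown library thus lay above every one of its controls, but shD3 #4 stayed far below the other knockdowns and replicate 3 of siD3 #3 lay well under its companions. On the log2 scale (± SE) the change came to 3.81 ± 0.14 with shD3 #1, 0.80 ± 0.19 with shD3 #4 and 4.18 ± 0.67 with siD3 #3, or 4.58 without replicate 3 of siD3 #3. In the deep libraries the levels were 1.21, 0.893 and 0.650 cpm in control and 17.96, 12.5 and 14.1 cpm in shD3 #1, a log2 fold change of 4.01 ± 0.18.

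*LAMB3* encodes the β3 chain of laminin-332. Its level was 19.9, 21.5 and 20.02 cpm in sh1Control and 205, 215 and 201 cpm in shD3 #1. It was 22.5, 20.9 and 25.4 cpm in sh4Control and 33.6, 36.6 and 36.7 cpm in shD3 #4. The siControl pair, at 26.5 and 12.3 cpm, spanned more than the other controls, and siD3 #3 held 93.2, 94.7 and 115 cpm. No knockdown library overlapped its controls, and the order shD3 #1, siD3 #3, shD3 #4 showed in the levels. Log2 fold changes were 3.34 ± 0.07, 2.36 ± 0.28 and 0.64 ± 0.08 in that order, and 3.19 ± 0.06 in the deep libraries, where 23.1, 23.1 and 25.0 cpm stood against 227, 228 and 195 cpm. Because the siControl pair differed, the value of siD3 #3 was 3.02 without siControl replicate 1 and 1.92 without replicate 2.

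**Figure D1:**
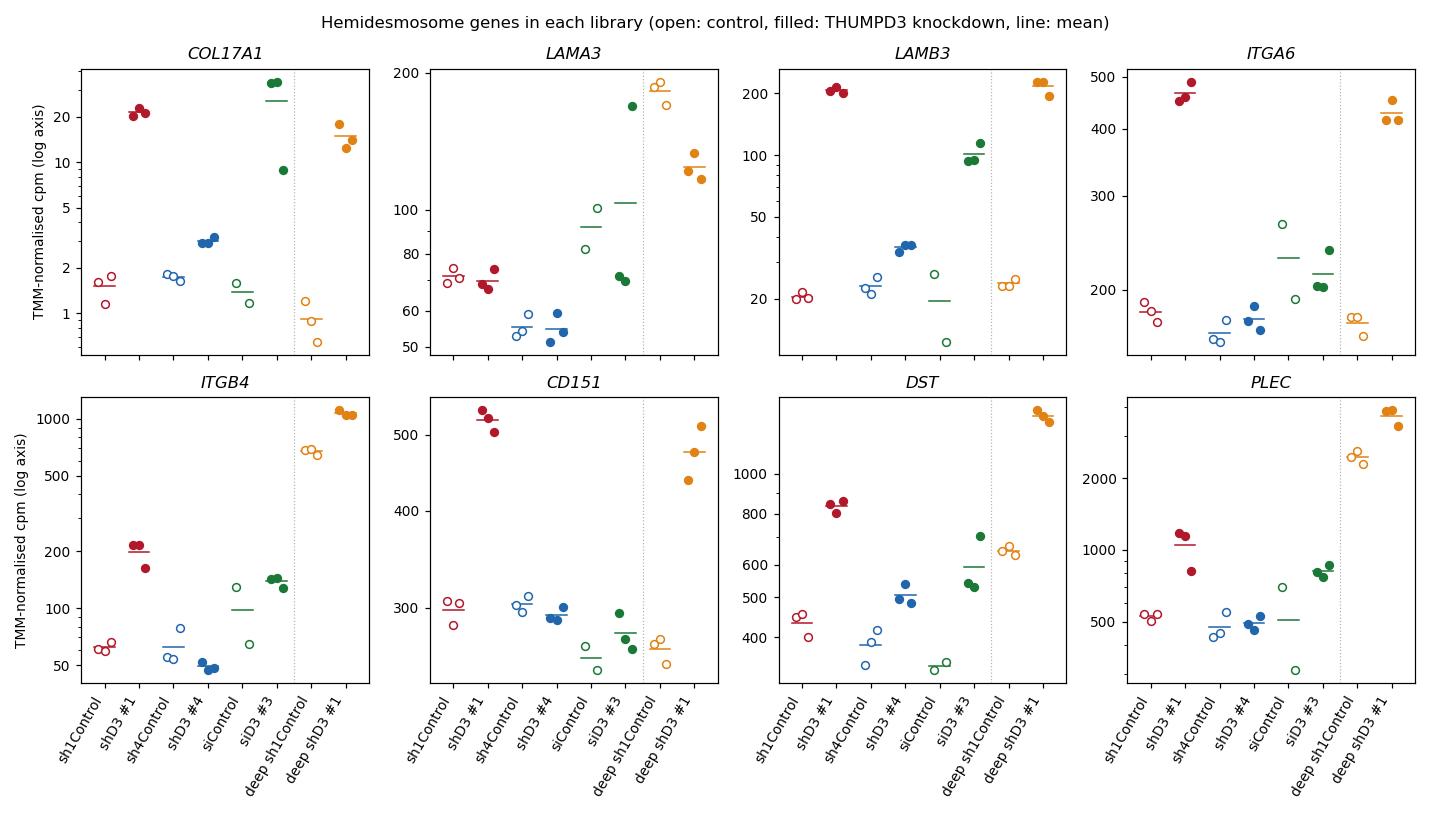
Level of each hemidesmosome gene in every library, as TMM-normalised cpm on a log axis whose range differs between panels. Open points are controls, filled points are THUMPD3 knockdowns, and lines are group means. The dotted line separates the deep libraries, whose counts come from another table. *COL17A1* and *LAMB3* lie above their controls in all 4 comparisons, *LAMA3* does not, and in shD3 #4 *DST* lies above and *ITGB4* below every control while *ITGA6*, *CD151* and *PLEC* overlap theirs.

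*LAMA3*, which encodes the α3 chain of laminin-332, did not move with *LAMB3* in the shRNA libraries. It was at 68.9, 74.3 and 70.8 cpm in sh1Control and 68.8, 66.8 and 73.9 cpm in shD3 #1. It was at 52.8, 54.3 and 59.1 cpm in sh4Control and 51.3, 59.2 and 53.8 cpm in shD3 #4. The groups overlapped in both shRNA comparisons, with log2 fold changes of -0.03 ± 0.07 and -0.02 ± 0.07. In the siRNA libraries *LAMA3* was at 82.1 and 100.8 cpm in siControl and at 71.5, 69.7 and 169 cpm in siD3 #3, so that its fold change of 0.18 ± 0.37 turned to -0.38 without replicate 3. In the deep libraries it was at 186, 191 and 169.7 cpm in control and 122, 133 and 117 cpm in shD3 #1, a log2 fold change of -0.56 ± 0.06, with every knockdown library below every control. It passed the fold threshold there without control replicate 3 (-0.60) or knockdown replicate 2 (-0.61).

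Divided by exon length, the balance of the α3 and β3 transcripts moved with these values. The ratio of *LAMB3* to *LAMA3*, as cpm per kilobase, was 0.893 ± 0.011 (SD, n = 3) in sh1Control and 9.26 ± 0.78 in shD3 #1. In sh4Control it was 1.29 ± 0.08 and in shD3 #4 2.03 ± 0.10. In siControl it was 0.381 and 1.01 in the 2 libraries, and 3.47 ± 1.18 in siD3 #3. In the deep libraries it was 0.408 ± 0.045 in control and 5.45 ± 0.33 in shD3 #1. The length joins all annotated exons of a gene, 14488 bases for *LAMA3* and 4647 for *LAMB3*. The size of the ratio therefore depends on that length and on the table of counts.

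**Figure D2:**
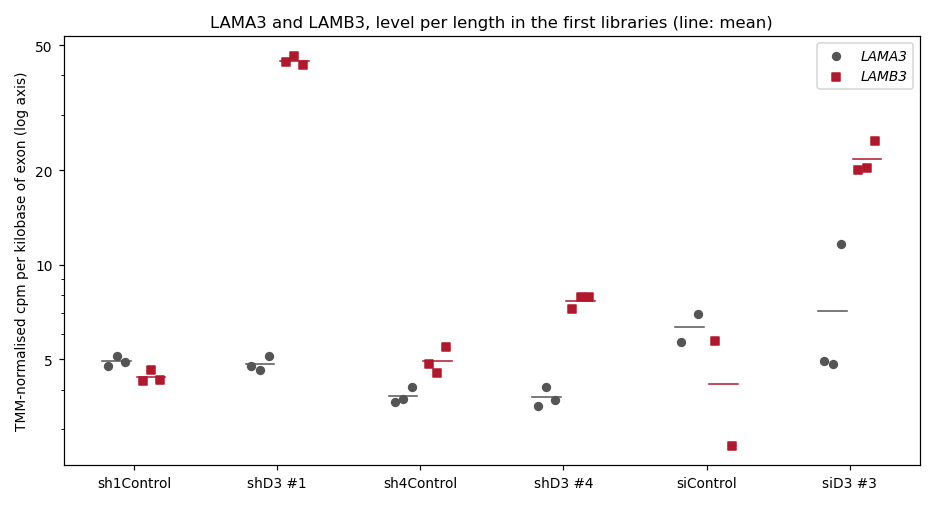
Level per length of the *LAMA3* and *LAMB3* transcripts in the first libraries, as TMM-normalised cpm per kilobase of exon on a log axis, with lines at group means. *LAMB3* lies above its controls by far in shD3 #1 and by less in shD3 #4. *LAMA3* shows no such shift in the shRNA libraries.

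Integrin α6β4, the laminin receptor of the hemidesmosome, is encoded by *ITGA6* and *ITGB4*. *ITGA6* was at 189.6, 182 and 174 cpm in sh1Control and 450.0, 459 and 490.2 cpm in shD3 #1. It was at 162, 159.9 and 175 cpm in sh4Control and 175, 186 and 168 cpm in shD3 #4, which overlapped. In the siRNA libraries 266 and 192 cpm in siControl enclosed the 203 and 202 cpm of siD3 #3 replicates 1 and 2 and the 237 cpm of replicate 3. The log2 change of *ITGA6* came to 1.36 ± 0.06 with shD3 #1, 0.09 ± 0.06 with shD3 #4, -0.10 ± 0.15 with siD3 #3 and 1.30 ± 0.05 in the deep libraries, and the groups stood apart in both shD3 #1 comparisons and in neither of the others.

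*ITGB4* was at 61.0, 59.6 and 66.5 cpm in sh1Control and 215, 217 and 163 cpm in shD3 #1. It was at 54.9, 54.1 and 78.5 cpm in sh4Control and 52.1, 47.0 and 48.5 cpm in shD3 #4, each below every control. The siControl pair differed, at 129.9 and 64.7 cpm, with siD3 #3 at 143, 144 and 128 cpm. On the log2 scale this was 1.67 ± 0.09 for shD3 #1, -0.34 ± 0.10 for shD3 #4 and 0.51 ± 0.25 for siD3 #3, and the last ran from 0.08 to 1.09 depending on which siControl library was left out. In the deep libraries *ITGB4* was at 684, 695 and 645 cpm in control and 1111, 1052 and 1045 cpm in shD3 #1, a log2 fold change of 0.66 ± 0.05.

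*CD151*, a tetraspanin that associates with laminin-binding integrins, was at 306, 285 and 304 cpm in sh1Control and 538, 526 and 504 cpm in shD3 #1. The log2 change came to 0.81 ± 0.06 there and 0.84 ± 0.06 in the deep libraries, with no overlap in either. With shD3 #4 it came to -0.05 ± 0.06 and with siD3 #3 to 0.10 ± 0.10, with overlapping groups. *GALK1* lies on the opposite strand of *ITGB4* and *POLR2L* on that of *CD151*, with counts that came to 24.9% and 15.3% of those of their neighbours in the first libraries. The library kit was directional, but the strand setting of the counting was not stated, so reads of such pairs may not have been told apart. *GALK1* had log2 fold changes of 0.02, -0.19, -0.51 and 0.09, and *POLR2L* of 0.13, -0.25, -0.31 and -1.01, in shD3 #1, shD3 #4, siD3 #3 and the deep libraries.

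The plakin genes *DST* and *PLEC* encode the linkers to keratin. *DST* makes BP230 in epithelia and larger proteins elsewhere, and the counts are per gene, so its isoforms, like those of *LAMA3*, *ITGA6* and *PLEC*, cannot be told apart. It was at 447, 456 and 400 cpm in sh1Control and 846, 801 and 857 cpm in shD3 #1. It was at 343, 391 and 416 cpm in sh4Control and 494, 539.9 and 486 cpm in shD3 #4, and at 333 and 348 cpm in siControl and 543, 529.5 and 706 cpm in siD3 #3. No group overlapped its controls, and log2 fold changes were 0.94 ± 0.06, 0.40 ± 0.07 and 0.80 ± 0.14 in shD3 #1, shD3 #4 and siD3 #3, and 1.09 ± 0.05 in the deep libraries.

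*PLEC* encodes plectin, which binds the tail of integrin β4. It was at 536, 502 and 540.1 cpm in sh1Control and 1179, 1149 and 816 cpm in shD3 #1, with replicate 3 the lowest of its group, as for *ITGB4*. It was at 429, 448 and 547 cpm in sh4Control and 489.9, 460.0 and 529.9 cpm in shD3 #4, which overlapped. The siControl libraries were at 699.9 and 312 cpm and siD3 #3 at 805, 768 and 866 cpm. Log2 fold changes were 0.99 ± 0.10, 0.06 ± 0.08 and 0.68 ± 0.29, and 0.58 ± 0.07 in the deep libraries, just under the 1.5-fold threshold used below. The siD3 #3 value was 1.37 without siControl replicate 1 and 0.20 without replicate 2.

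**Figure D3:**
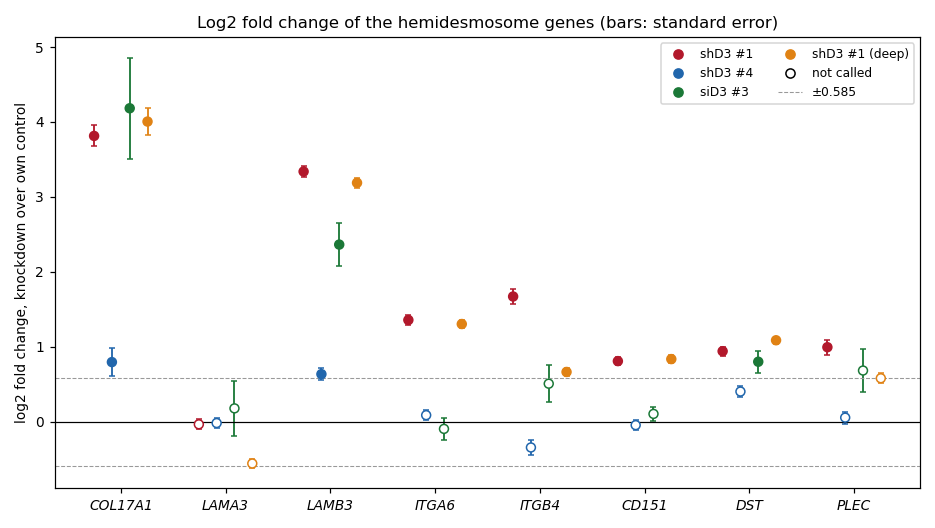
Log2 fold change of the hemidesmosome genes in each knockdown over its own control, with bars for the standard error. Filled points passed the adjusted p and fold thresholds, and dashed lines mark a 1.5-fold change in either direction. The values of *COL17A1* run from 0.80 in shD3 #4 to 4.18 in siD3 #3, and those of *ITGA6*, *ITGB4* and *CD151* in shD3 #4 and siD3 #3 lie within the dashed lines.

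A gene was called higher or lower in a comparison where edgeR's quasi-likelihood test gave a Benjamini-Hochberg adjusted p-value under 0.05 over all genes tested and the change was at least 1.5-fold in either direction. All 8 genes passed the filter on low counts in every comparison. In shD3 #1, 7 were called higher and 0 lower (all but *LAMA3*), where 14.5% of all genes were called higher and 14.6% lower. In shD3 #4, 2 were called higher (*COL17A1* and *LAMB3*) and 0 lower, against 8% and 4.49% of all genes. In siD3 #3, 3 were called higher (*COL17A1*, *LAMB3* and *DST*) and 0 lower, against 12.5% and 9.42%. In the deep libraries 6 were called higher (all but *LAMA3* and *PLEC*) and 0 lower, against 15% and 14.1%. Nothing is read from these counts, since the genes were chosen on these comparisons. *LAMB3* in shD3 #4 was 0.57, below the fold threshold, without sh4Control replicate 2, and *COL17A1* there was 0.78 and not called in the fit of all 17 libraries that gives the differences below.

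Groups did not overlap in shD3 #1 for 7 of the 8 genes (62% of all genes tested), in shD3 #4 for 3 above and 1 below (49.4%), in siD3 #3 for 4 (60%), and in the deep libraries for 7 above and 1 below (67.1%). The median log2 fold change of the 8 genes was 1.18 in shD3 #1, where that of all genes was -0.01. It was 0.07 against 0.01 in shD3 #4, 0.60 against 0.03 in siD3 #3 and 0.96 against -0.02 in the deep libraries.

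In the deep libraries *ITGA6* was at 178, 178 and 164 cpm in control and 415, 453 and 416 cpm in shD3 #1, and *CD151* at 269.9, 274 and 254 cpm against 437, 475 and 513 cpm. *DST* was at 649, 665 and 634 cpm against 1427, 1382 and 1333 cpm, and *PLEC* at 2463, 2607 and 2297 cpm against 3831, 3868 and 3316 cpm. Each of these genes stood above its controls in every deep knockdown library, as in the first shD3 #1 libraries. In shD3 #4 *CD151* was at 291, 289.9 and 300.5 cpm against 302, 296 and 311 cpm in sh4Control, and in siD3 #3 at 296, 274 and 266 cpm against 268 and 249.6 cpm in siControl, so neither pair of groups was apart.

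The difference between knockdowns was fitted in 1 model of the 17 first libraries. It is built from the same comparisons by which the genes were found, and no p-value is given for *COL17A1* and *LAMB3*. The p-values of the other genes and all calls of these differences are descriptions, and nothing is concluded from them. The effect of shD3 #1 minus that of shD3 #4 was called for 6 of the 8 genes, all positive, against 25.9% of 18672 genes in either direction. It was 3.01 ± 0.63 for *COL17A1* and 2.7 ± 0.22 for *LAMB3*. *ITGB4* differed by 2.01 ± 0.25 (edgeR, adjusted p = 2.29e-06) and *ITGA6* by 1.27 ± 0.13 (adjusted p = 2.66e-07). *PLEC* differed by 0.94 ± 0.26 (adjusted p = 0.00696) and *CD151* by 0.85 ± 0.09 (adjusted p = 2.93e-07). *DST* differed by 0.54 ± 0.13, which passed the test (adjusted p = 0.00323) but not the fold threshold, and *LAMA3* by -0.02 ± 0.30 (adjusted p = 0.968). The *THUMPD3* RNA left was 51.3% of control with shD3 #1, 31.4% with shD3 #4 and 17.1% with siD3 #3. Whether the depth of depletion bears on these differences was not tested.

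The effect of siD3 #3 minus that of shD3 #1 was called for 4 of the genes, all negative, against 25.4% of all genes. It was -0.97 ± 0.23 for *LAMB3* and 0.38 ± 0.68, not called, for *COL17A1*. For *ITGA6* it was -1.44 ± 0.14 (edgeR, adjusted p = 9.85e-08), for *ITGB4* -1.15 ± 0.26 (adjusted p = 0.00144) and for *CD151* -0.69 ± 0.10 (adjusted p = 9.4e-06). Without siControl replicate 1 the values of *LAMB3* and *ITGB4* were -0.31 and -0.58 and no longer called. For *DST* and *PLEC* the difference was -0.13 ± 0.14 and -0.30 ± 0.28 (adjusted p = 0.526 and 0.429), and the latter was 0.38 without siControl replicate 1 and -0.79, called, without siControl replicate 2. *LAMA3* was 0.23 ± 0.32 (adjusted p = 0.607), and -0.33 without replicate 3 of siD3 #3. Without that replicate the *COL17A1* difference of 0.78 was called.

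The effect of siD3 #3 minus that of shD3 #4 was called for 3 of the genes, against 17.8% of all genes. It was 3.40 ± 0.69 for *COL17A1* and 1.73 ± 0.23 for *LAMB3*, and 0.86 ± 0.26 for *ITGB4* (edgeR, adjusted p = 0.019). The call of *ITGB4* was lost without siControl replicate 2 (0.43) and without sh4Control replicate 3 (0.66). *PLEC* had 0.64 ± 0.28 (adjusted p = 0.0973), with 1.32, called, when siControl replicate 1 was left out. *DST* had 0.41 ± 0.14, under the fold threshold (adjusted p = 0.0387). *ITGA6*, *CD151* and *LAMA3* had -0.17 ± 0.14, 0.16 ± 0.10 and 0.21 ± 0.32 (adjusted p = 0.41, 0.233 and 0.684). Delivery and harvest day differ between siRNA and shRNA and cannot be told apart from the reagent.

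The control cells were also compared with each other, although their levels entered the comparisons by which the genes were chosen. Between sh1Control and sh4Control 0 of the 8 genes were called, where 0% of 18672 genes were called by edgeR and by DESeq2. At an unadjusted p under 0.05 edgeR gave 2576 genes and DESeq2 2192, with 0 of the 8 among either. The largest differences among the 8 were 0.33 ± 0.21 for *LAMA3* and -0.23 ± 0.51 for *COL17A1*. This fit pools the spread of a gene over all 17 libraries, those of siD3 #3 included. The standard error of *LAMA3* was 0.07 in each shRNA comparison alone. A gene that was not called may therefore still differ. Against the mean of sh1Control and sh4Control, siControl had a higher *ITGB4*, by 0.69 ± 0.17 (edgeR, adjusted p = 0.00519). It alone of the 8 was called, where 7.27% of all genes were. That call rested on siControl replicate 1, without which the difference was 0.09, under the fold threshold. Leaving it out also moved *PLEC* from 0.06 ± 0.18 to -0.64 and *LAMB3* from -0.09 ± 0.16 to -0.77. *ITGA6* (0.44 ± 0.09) and *LAMA3* (0.58 ± 0.20) had adjusted p = 0.00154 and 0.0411 and lay under the fold threshold.

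Compared per kilobase of exon, *CD151* was the most abundant of the genes in the first sh1Control libraries, at 76.6 ± 3.0 (SD, n = 3) cpm per kilobase. *PLEC* (31.0 ± 1.2) and *ITGA6* (27.2 ± 1.2) followed, then *ITGB4* (9.22 ± 0.54) and *DST* (9.03 ± 0.63), whose ranges overlapped, then *LAMA3* (4.93 ± 0.19), *LAMB3* (4.40 ± 0.19) and *COL17A1* (0.216 ± 0.045). In the first shD3 #1 libraries *LAMB3*, at 44.5 ± 1.6, stood behind *CD151* (134 ± 4), *ITGA6* (69.8 ± 3.2) and *PLEC* (61.7 ± 11.9) and ahead of the other genes, and the ranges of *ITGA6* and *PLEC* overlapped. *COL17A1* remained the lowest, at 3.07 ± 0.18. In siD3 #3 it was 3.65 ± 2.07 and in shD3 #4 0.432 ± 0.024 cpm per kilobase. The length is that of all annotated exons, 48142 bases for *DST*. It joins the isoforms of a gene, so levels per kilobase of genes with several isoforms are understated.

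The tables of the first and the deep libraries do not give equal levels for equal labels. The deep level of sh1Control over the first one was 10.8 for *ITGB4*, 4.67 for *PLEC* and 2.55 for *LAMA3*, and between 0.607 and 1.5 for the other 5 genes. The order of the genes therefore differs. In the deep sh1Control libraries *PLEC*, at 144.5 ± 9.1 cpm per kilobase (SD, n = 3), and *ITGB4*, at 99.8 ± 3.8, stood above *CD151*, at 68.3 ± 2.6. In deep shD3 #1 *LAMB3*, at 46.6 ± 4.1, stood behind *PLEC* (216 ± 18), *ITGB4* (158 ± 5), *CD151* (122 ± 10) and *ITGA6* (64.1 ± 3.2). The tables list genes by different identifiers, the cause was not tested, and fold changes were taken within a table only.

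Of 31 related genes of the basement membrane zone, other cell-matrix and cell-cell anchors, keratins and regulators, 28 were tested in each comparison. In shD3 #1, 7 were called higher and 1 lower, where 14.5% and 14.6% of all genes were. In shD3 #4 4 and 1 were, against 8% and 4.49%, in siD3 #3 6 and 1, against 12.5% and 9.42%, and in the deep libraries 7 and 3, against 15% and 14.1%. Their median log2 fold changes were 0.25, -0.13, 0.22 and 0.26, where those of all genes were -0.01, 0.01, 0.03 and -0.02. Of the 31, 4 were called higher in at least 3 of the 4 comparisons (*COL7A1*, *PPL*, *BMP1* and *TP63*) and 0 were called lower that often. In none were 15 called, among them the genes not tested. The first and deep shD3 #1 comparisons use the same shRNA, so the 4 comparisons are not separate knockdowns. The share of all genes called this often was not computed, and nothing is read from these counts.

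*COL7A1*, whose product forms the anchoring fibrils beneath hemidesmosomes, had log2 values of 0.71 ± 0.07 with shD3 #1, -0.18 ± 0.07 with shD3 #4, 0.80 ± 0.14 with siD3 #3 and 1.03 ± 0.05 in the deep libraries. *BMP1*, a protease that trims procollagens, among them procollagen VII, had 0.87 ± 0.09, 0.25 ± 0.07, 1.09 ± 0.08 and 0.95 ± 0.04. *PPL*, the plakin periplakin, was called in all 4, with 0.74 ± 0.09, 0.65 ± 0.11, 0.91 ± 0.21 and 1.12 ± 0.06. *COL7A1* and *BMP1* were called in all but shD3 #4. The *PPL* call was lost in siD3 #3 without either siControl library (1.03 and 0.79) and in shD3 #4 without sh4Control replicate 2 or shD3 #4 replicate 3 (0.58 and 0.56).

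*FOSL1*, a subunit of AP-1, was called higher in shD3 #1 and lower in shD3 #4. It was at 9.29, 7.31 and 8.42 cpm in sh1Control and 27.8, 28.3 and 31.8 cpm in shD3 #1, but at 8.41, 9.11 and 8.21 cpm in sh4Control and 2.41, 2.58 and 3.10 cpm in shD3 #4. Log2 fold changes were 1.80 ± 0.10 and -1.68 ± 0.14 there, 0.91 ± 0.31 in siD3 #3, not called, and 0.65 ± 0.09 in the deep libraries, where the call was lost without control replicate 3 or knockdown replicate 2 (0.58 and 0.57). The siD3 #3 value of *FOSL1* was called under 6 of 11 alternatives and ran from 0.53 to 1.45 with 1 library left out. *TP63*, which encodes the master regulator of basal epithelial cells, had 1.16 ± 0.13 in shD3 #1, 1.33 ± 0.11 in shD3 #4 and 3.01 ± 0.14 in the deep libraries, but -0.63 ± 0.33, not called, in siD3 #3. Among the keratins, *KRT8* had 0.35 ± 0.06, -0.32 ± 0.07, 0.10 ± 0.29 and 0.67 ± 0.06, of which the last was called, and *KRT18* was called in none.

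**Figure D4:**
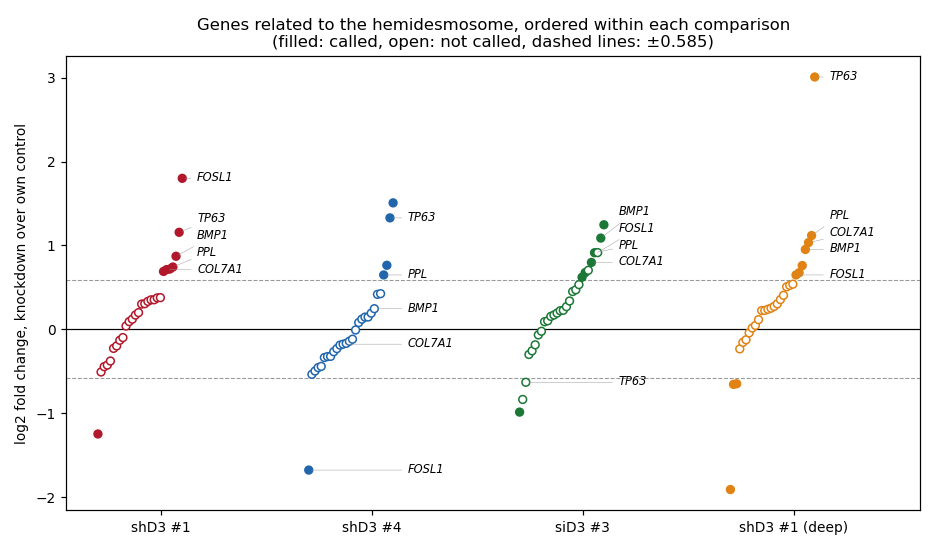
Log2 fold changes of the 28 tested related genes, ordered within each comparison, with filled points for called genes and dashed lines at a 1.5-fold change in either direction. The genes *COL7A1*, *BMP1*, *PPL*, *TP63* and *FOSL1* are labelled. *FOSL1* lies at the top in shD3 #1 and at the bottom in shD3 #4.

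Markers of epithelial and other cells moved with some of these values. The 6 simple-epithelial markers named above summed to 5984 to 6298 cpm in sh1Control and 7653 to 7942 cpm in shD3 #1, and in the deep libraries to 4759 to 5330 cpm in control and 6956 to 7045 cpm in shD3 #1. They were lower in shD3 #4, at 4826 to 5284 cpm against 6697 to 6952 cpm in sh4Control, and overlapped in the siRNA libraries, at 5164 to 6135 cpm in siControl and 3758 to 6529 cpm in siD3 #3. Most of this sum was *KRT7*, *KRT8* and *KRT18*, with means of 1492, 2233 and 2253 cpm in sh1Control. Within this list *CDH1*, which encodes E-cadherin, was called lower in both shD3 #1 comparisons, with log2 fold changes of -1.39 ± 0.08 and -1.39 ± 0.05, while *EPCAM* (1.00 and 1.89) and *KRT19* (1.95 and 1.71) were called higher. *KRT7* and *KRT8* were called higher in the deep libraries (0.68 and 0.67), and *KRT19* in siD3 #3 (1.41 ± 0.20). In shD3 #4 *KRT7* was called lower (-0.83 ± 0.07). *EPCAM* (-0.46 ± 0.10) lay below every control there and *CDH1* (0.30 ± 0.07) and *KRT19* (0.27 ± 0.08) above, not called. The basal or squamous markers *KRT5*, *KRT14*, *KRT6A*, *KRT15*, *TP63*, *DSG3* and *SOX2* summed to 23.3 to 25.1 cpm in sh1Control and 39.8 to 44.5 cpm in shD3 #1, to 22.7 to 24.6 cpm in sh4Control and 44.5 to 47.3 cpm in shD3 #4, and to 19.9 to 25.9 cpm in siControl and 22.1 to 33.1 cpm in siD3 #3. They summed to 14.6 to 17.4 cpm in deep control and 51.2 to 56.3 cpm in deep shD3 #1. *KRT5*, *KRT14* and *DSG3* had at most 6 counts in any library. *SOX2* and *TP63* made up most of the shRNA sums, with means of 13.8 and 5.55 cpm in sh4Control and 27.4 and 13.9 cpm in shD3 #4. *KRT6A* was called lower there (log2 fold change -1.59 ± 0.32), but higher in both shD3 #1 comparisons (2.42 and 2.23). In siD3 #3 *SOX2* and *TP63* were not called. *KRT15* was called higher there (1.51 ± 0.34), as in both shD3 #1 comparisons (1.16 and 1.65). *KRT14* was at 0 in both groups of the first shD3 #1 comparison, and in each of these groups 3 or 4 of the 7 markers exceeded 20 counts in a library. The fibroblast, endothelial and leukocyte markers *COL1A1*, *COL3A1*, *PDGFRB*, *PECAM1*, *VWF* and *PTPRC* summed to 4.87 to 6.05 cpm in sh1Control and 13.4 to 15.4 cpm in shD3 #1. They summed to 3.57 to 6.68 cpm in sh4Control, 6.65 to 8.13 cpm in shD3 #4, 2.67 to 3.95 cpm in siControl and 5.54 to 7.22 cpm in siD3 #3, and to 7.84 to 8.48 cpm in deep control and 29.6 to 31.5 cpm in deep shD3 #1, and 1 or 2 of the 6 exceeded 20 counts. Most of this sum was *COL1A1*, with a mean of 4.65 cpm in sh1Control and 7.69 cpm in shD3 #1 and of 8.03 and 26.4 cpm in the deep groups, and *COL3A1*, with 0.594 and 6.44 cpm and, in the deep groups, 0.0693 and 3.46 cpm. The other 4 had at most 10 counts in any library. The part of these marker lists in the hemidesmosome values was not tested. In bulk RNA, a change in the share of cells that express a gene and a change in the RNA per cell cannot be told apart.

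The genes whose pattern over the 17 first libraries lay closest to that of *COL17A1*, out of 16336, included *CST2*, *CALY*, *PSG4* and *FILIP1L*. Closeness was the root mean square difference in log2 cpm relative to the own controls, and it ran from 0.47 for *CST2* to 0.67 for *FILIP1L*, where the pattern of *COL17A1* itself had a root mean square of 2.32. *LAMB3* ranked 12 in this list, at 0.79. Both *COL17A1* and *LAMB3* were chosen for their rise in these libraries, so their closeness follows in part from that choice and is only described. The genes closest to *LAMB3* were *PLXNA4*, *DHRS9*, *CLDN4*, *CD163L1* and *CST2*, at 0.32 to 0.40, and *COL17A1* ranked 124. *ITGB4* ranked 569 and *LAMA3* 7894. *CST2*, *CALY*, *FILIP1L*, *DHRS9* and *CD163L1* had too few counts to be tested in the shD3 #4 comparison. The prior count of 2 in the log2 cpm shrinks the changes of genes with few counts, so closeness is not likeness in fold change. *CST2* had fitted log2 fold changes of 7.35 with shD3 #1, 4.23 with siD3 #3 and 5.74 in the deep libraries. Those of *LAMB3* were 3.34, 2.36 and 3.19. *CLDN4*, a tight junction claudin, had log2 values of 2.79 with shD3 #1, 0.75 with shD3 #4, 2.84 with siD3 #3 and 2.69 in the deep libraries.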

How the data were processed

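Total RNA depleted of rRNA was sequenced with a directional kit. The authors trimmed reads with Trimmomatic 0.40, aligned them to GRCh38.p14 with STAR 2.7.10a and deposited unnormalised counts per gene; the methods name RefSeq annotation, while the first table uses Ensembl identifiers, of which 61757 matched a symbol. No column of another sample was found (0 left out). Exon lengths and positions came from GENCODE on GRCh38, promoter windows from RefSeq.

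Knockdown and own control libraries were fitted per comparison by edgeR 4.0.16 under R 4.3.3, using TMM normalisation, filterByExpr, the quasi-likelihood test and Benjamini-Hochberg adjustment over all genes tested, and differences in 1 fit of 17 libraries. Cpm are normalised within the comparison. Scripts were tested on simulated data. Alternatives were DESeq2 1.42.0, DESeq2 size factors, a filter of 1 count only, a minimum of 10 counts per sample, 1 fit of all 17 libraries, a replicate block and each library left out in turn. Python 3.11.15 with numpy 2.4.6, pandas 2.3.3, scipy 1.17.1 and matplotlib 3.10.9 was used for ratios, likeness and plots.

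Named genes were the 8 members, *THUMPD3*, 4 keratins, related genes called the same way in at least 3 of 4 comparisons or in opposite directions, and the 5 genes closest in pattern to *COL17A1* and to *LAMB3* (log2 cpm, prior count 2). Some genes these rules take in are not reported here. *GALK1* and *POLR2L* were named for their position, and *CDH1*, *EPCAM*, *KRT19*, *COL1A1* and *COL3A1*, of the marker lists, after their values were seen. The members and lists were chosen with earlier results of these data known. No pair of libraries agreed within sampling noise. Same-numbered libraries of the shRNA comparisons did not deviate together (correlations from -0.08 to 0.07), so the numbers were not taken to pair them. The siRNA values, 0.14 and -0.11, tell little about pairing, since the deviations of 2 siControl libraries from their mean mirror each other.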

Additional observations from a re-analysis of the deposited data

Results flagged for a closer look

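These results were singled out because the effect of 1 knockdown differed from that of another by the test of the difference itself, and no explanation for them was weighed. The effect of shD3 #1 exceeded that of shD3 #4 by 3.01 on the log2 scale for *COL17A1*, 2.7 for *LAMB3*, 1.27 for *ITGA6*, 2.01 for *ITGB4*, 0.85 for *CD151* and 0.94 for *PLEC*. The effect of siD3 #3 minus that of shD3 #1 was -0.97 for *LAMB3*, -1.44 for *ITGA6*, -1.15 for *ITGB4* and -0.69 for *CD151*. The effect of siD3 #3 exceeded that of shD3 #4 by 3.40 for *COL17A1*, 1.73 for *LAMB3* and 0.86 for *ITGB4*. *COL17A1* and *LAMB3* had been chosen for their change. The other genes were listed with them, and their differences come from the same comparisons, so all of these values are descriptions. No group of first or deep libraries had 4 or more samples, so the gap test for a single library far from its group was not run.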

How the results depend on the processing

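Over the alternatives, 897 of the recomputed values of the 8 genes kept their direction and side of the thresholds, 25 passed where the reported value did not, 7 no longer passed and 23 changed sign. In shD3 #4, 1 gene was called higher in the fit of all 17 libraries (*COL17A1* was lost at 0.78), and 1 to 2 when 1 library was left out. In siD3 #3 the replicate block gave 5 genes called higher and leaving out libraries 3 to 5, with 1230 to 2315 of all genes called higher (1324 and 1230 without siControl replicates 1 and 2). In the deep libraries 0 to 1 genes were called lower with 1 library left out. For siD3 #3 minus shD3 #1, the replicate block gave 1 gene called higher, and leaving out libraries gave 0 to 1 higher and 2 to 5 lower. Between the shRNA controls, no filter beyond 1 count gave 10 of all genes higher and 12 lower, and leaving out libraries 0 to 1 higher. For siControl against the shRNA controls, 2 genes were called higher with DESeq2 size factors, with no filter beyond 1 count and with the replicate block, and 0 to 2 higher, 0 to 2 lower and 413 to 731 of all genes lower with 1 library left out. The replicate block changed no other count by over 1.5 times.

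The sign changes were in values near 0 or in those that rest on the siRNA libraries. With 1 library left out, *LAMA3* ran from -0.0745 to 0.000751 in shD3 #1, from -0.0795 to 0.0303 in shD3 #4, from -0.38 to 0.40 in siD3 #3, from -0.0703 to 0.0416 for shD3 #1 minus shD3 #4, from -0.33 to 0.43 for siD3 #3 minus shD3 #1 and from -0.35 to 0.41 for siD3 #3 minus shD3 #4. Its values with the replicate block were -0.36 in siD3 #3, and -0.31 and -0.33 for these siD3 #3 differences, while for shD3 #1 minus shD3 #4 DESeq2 gave 0.00623 and its size factors 0.00459. Likewise *PLEC* ran from -0.0171 to 0.16 in shD3 #4, from -0.79 to 0.38 for siD3 #3 minus shD3 #1 and from -0.64 to 0.53 for siControl against the shRNA controls. *ITGA6* ran from -0.32 to 0.15 in siD3 #3 and from -0.40 to 0.0647 for siD3 #3 minus shD3 #4, and *ITGB4* from -0.14 to 0.16 between the shRNA controls. For siControl against the shRNA controls *LAMB3* ran from -0.77 to 0.33. In siD3 #3 *KRT18* ran from -0.38 to 0.10, with 0.12 under the block, and *KRT8* from -0.0822 to 0.35. *COL17A1*, with 17 to 37 counts in the first control libraries, is the least precisely measured of the 8. With 1 siControl library left, that library is assumed to vary like the other groups.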
